A study of Mus musculus with 12 samples.

Results

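Transcripts of 51 lysosomal genes were followed in mouse hippocampus, 51 of the 54427 genes of the count table. They were taken by gene symbol from a list made by the function of the proteins, which comprises 9 cathepsins, 17 other hydrolases, 4 cofactors of the lysosomal lumen, 7 membrane proteins and 14 subunits of the vacuolar proton pump (V-ATPase). RNA was measured by sequencing in 12 libraries, 3 for each of 4 genotypes, and every count is a number of reads assigned to a gene. The 5xFAD;Ulk1OV mice carried both the 5xFAD transgenes and the Ulk1 overexpression allele, the 5xFAD mice carried the 5xFAD transgenes, the Ulk1OV mice carried the overexpression allele, and WT mice carried neither. 5xFAD is a line whose transgenes are driven in neurons by the Thy1 promoter, and it develops amyloid plaques. Ulk1 encodes a protein kinase that starts autophagy. For the Ulk1OV construct, its promoter and the age and sex of the mice, the sources used here give no description. Nothing states that the 3 libraries of a group came from separate animals, so p-values measure the spread between libraries, which may be technical.

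Lysosomes are acidic compartments in which proteases, glycosidases, lipases and sulfatases break down material delivered by endocytosis and autophagy. The V-ATPase acidifies them: its cytosolic V1 part hydrolyses ATP and turns a ring of proteolipid subunits in its membrane part, V0, which carries protons into the lumen. Neurons also use the pump to load synaptic vesicles. Many lysosomal genes share an E-box in the promoter to which the transcription factor TFEB can bind.

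All 51 genes passed the filter on low counts, with 122 to 31701 counts in a library, among 17227 genes tested. Totals ran from 16149992 to 18547132 counts. Levels are given as CPM, the count as a share of the scaled library total. Ulk1 had 97.1, 98.5 and 85.1 CPM in 5xFAD;Ulk1OV, 86.3, 63.5 and 70.0 CPM in 5xFAD, 102, 87.7 and 84.6 CPM in Ulk1OV and 77.6, 81.8 and 74.1 CPM in WT. It did not pass the test in either Ulk1OV comparison: the log2 fold change was 0.35 ± 0.11 (SE) in 5xFAD;Ulk1OV against 5xFAD (edgeR adjusted p = 0.144) and 0.23 ± 0.11 in Ulk1OV against WT (edgeR adjusted p = 0.229). The 15 neuronal markers summed to 11633 to 15027 CPM in the 12 libraries, and none of them was at 0 throughout. The library labelled 5xFAD;Ulk1OV replicate 3 goes against its label. It had 1310 CPM of App, 954 CPM of Prnp and 0.779 CPM of Cst7. In the remaining 5 libraries labelled as carrying 5xFAD there were 2201 to 2667 CPM of App, 2067 to 2510 CPM of Prnp and 4.36 to 7.41 CPM of Cst7. Many calls and values that rest on this library are given again with it left out. Those of DESeq2 and those corrected for the GC content and length of transcripts always include it.

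Promoters of some of the proton pump and hydrolase genes called below are shown first, to set the E-boxes beside the measurements. They were picked from the called genes and do not stand for all of them. Each run is read 5′ to 3′ and covers the 150 bases before the RefSeq transcript start of GRCm38.p6, on the minus strand in every case, with CACGTG in capitals. That of Atp6v0d1 extends by 6 bases to include an E-box over its start.
Atp6v0b, chr4:117887330-117887479: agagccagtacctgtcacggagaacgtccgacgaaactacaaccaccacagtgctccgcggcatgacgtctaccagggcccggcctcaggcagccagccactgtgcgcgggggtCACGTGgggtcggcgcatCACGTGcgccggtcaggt
Arsa, chr15:89477425-89477574: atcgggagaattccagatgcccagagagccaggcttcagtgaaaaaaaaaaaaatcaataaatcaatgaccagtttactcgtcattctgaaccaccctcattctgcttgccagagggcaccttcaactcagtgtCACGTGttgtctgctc
Atp6v0d1, chr8:105566059-105566214: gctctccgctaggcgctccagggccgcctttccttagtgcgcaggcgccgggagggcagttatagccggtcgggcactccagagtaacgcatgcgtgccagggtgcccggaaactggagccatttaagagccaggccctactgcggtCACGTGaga
Atp6v0c, chr17:24169679-24169828: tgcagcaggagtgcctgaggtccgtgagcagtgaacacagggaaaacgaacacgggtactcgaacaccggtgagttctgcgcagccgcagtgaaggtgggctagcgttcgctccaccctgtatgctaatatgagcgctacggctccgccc
Atp6v0b held 2 E-boxes in this stretch, Arsa 1 and Atp6v0d1 1, whereas Atp6v0c, the gene with the widest range of levels among the 51, held 0. Of the called genes not shown, Ctsd and Glb1 each held 1 in the 150 bases before the start, and Npc2, Tpp1 and Atp6v1f held 0.

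The search was then run over whole RefSeq promoter windows, from 250 bases before to 50 bases after each start. Windows of 44 of the 51 genes were searched, all but those of Asah1, Atp6v1b2, Atp6v1c1, Atp6v1h, Ctsb, Ctsh and Npc1. CACGTG, which reads the same on both strands, lay in 15 of the 50 windows of these genes (30%), in 9.23% of the 15680 windows of genes tested and in 7.15% of all 32851 windows. TCACGTGA, which contains it, lay in 6 of the 50 windows (12%), in 1.61% of windows of genes tested and in 0.974% of all windows. The 15 genes with the core were Arsa, Atp6v0b, Atp6v0d1, Atp6v1a, Ctsa, Ctsd, Ctsf, Ctsl, Gaa, Gla, Glb1, Lamp1, Lgmn, Mcoln1 and Naglu. Ctsd had it at bases -245 to -240 and -98 to -93 from its start. Lamp1 held the most, with a first match at -61 and a last one at -15. A match is a string of letters and not a measured binding site. In the interaction of 5xFAD and Ulk1OV described below, 5 of the 15 genes with the core were called and 4 of the 29 without it. Those without it were Atp6v0c, Atp6v1f, Npc2 and Tpp1. Of all genes tested 12.8% were called there, and a link between the core and the calls was not tested. Tfeb itself had 7.86 to 15.3 CPM over the 12 libraries.

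Levels of the 51 genes spanned a wide range when set on a per-length scale of CPM per kilobase of exon, averaged over the 12 libraries. Psap, the precursor of the saposins that present sphingolipids to their hydrolases, was highest at 582 CPM per kilobase, and the mannosidase gene Manba was lowest at 1.64 CPM per kilobase. Proton pump subunits lay between 19.3 (Atp6v1h) and 173 CPM per kilobase (Atp6v1g2, a neuronal stalk subunit), with a median of 92.2. Cathepsins lay between 2.61 (Ctsc) and 103 CPM per kilobase (Ctsb), with a median of 20.2. The other hydrolases had a median of 6.71 CPM per kilobase, and the highest of them was Gaa, which degrades glycogen, at 66.2.

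These transcripts varied little between libraries. The ratio of the highest to the lowest library had a median of 1.36 over the 51 genes and of 1.69 over all genes tested. It exceeded 1.5 in 14 of the 51 genes (27.5%), against 65.2% of all genes tested, and the 2 sets were not matched for depth. Smpd1, the acid sphingomyelinase, varied least at 1.09-fold and Atp6v0c most at 2.8-fold. Naglu, which degrades heparan sulfate, followed at 2-fold and Ctsd at 1.87-fold. Summed over its 14 subunits, the proton pump reached 4912, 4613 and 4369 CPM in 5xFAD;Ulk1OV, 5089, 4608 and 4913 CPM in 5xFAD, 4507, 4723 and 4680 CPM in Ulk1OV and 4627, 4822 and 4569 CPM in WT. These sums overlapped in all 4 groups. They weigh abundant subunits most (Atp6v1a averaged 747 CPM and Atp6v0c 153 CPM), so they do not show whether the scarcer subunits changed. In RNA from whole tissue, fewer cells of a type and less RNA per cell cannot be told apart.

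**Figure D1:**
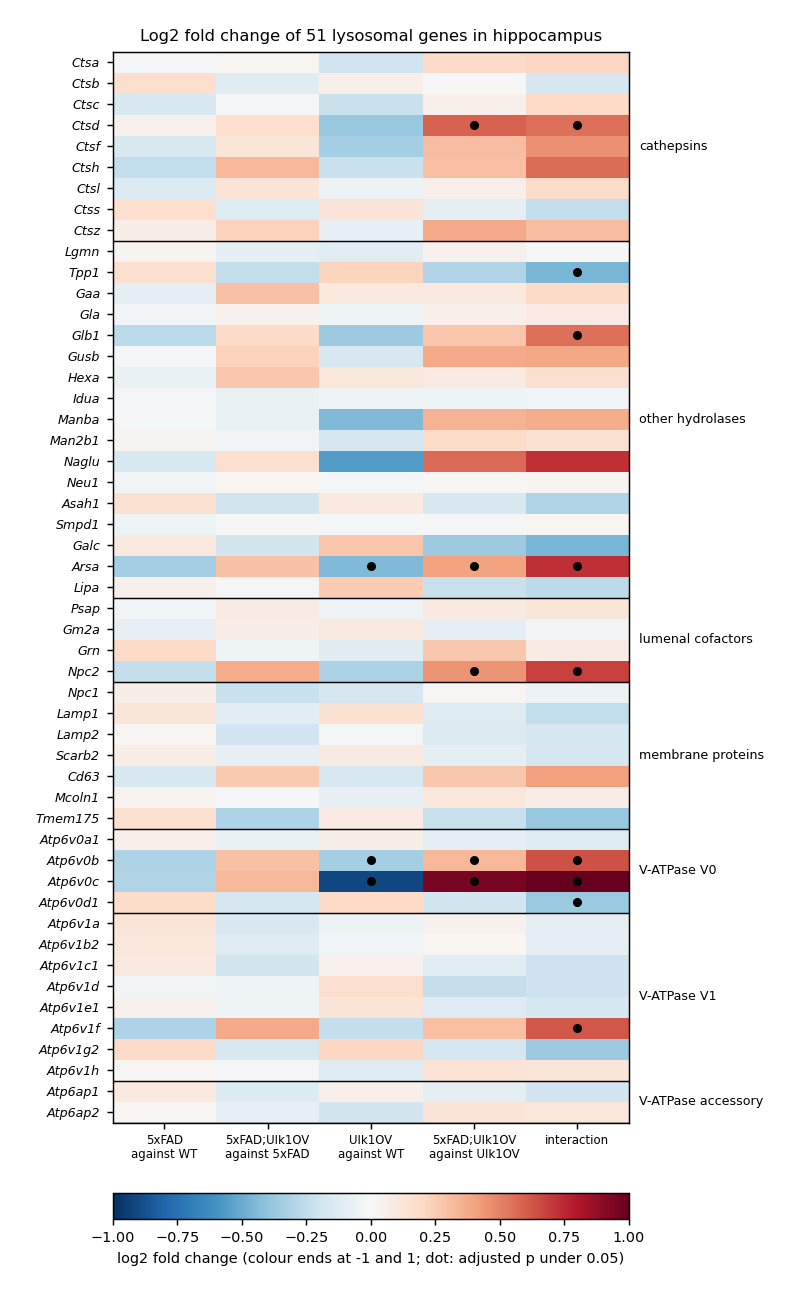
Log2 fold change of each of the 51 genes (rows, grouped by class) in the 4 comparisons and the interaction (columns), in colour from blue (lower) to red (higher). A black dot marks an edgeR adjusted p under 0.05: there are 3 dots for Ulk1OV against WT, 5 for 5xFAD;Ulk1OV against Ulk1OV, 9 for the interaction and 0 in the first and second columns.

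The effect of 5xFAD alone on these genes was asked first, by comparing 5xFAD with WT. None of the 51 genes was called at an edgeR adjusted p under 0.05 after Benjamini-Hochberg adjustment over all genes, where 0% of genes tested were called. At an unadjusted p under 0.05, 3 were higher and 5 lower (8 of 51, 15.7%, against 12.4% of all genes tested), and DESeq2 called 0 of the 51 and 0.886% of all genes given an adjusted p. Their median log2 fold change was 0.02, and that of all genes tested was 0.00. In 15 of the 51 genes (29.4%) the libraries of the 2 groups did not overlap, against 19.5% of all genes tested.

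Within each class the gene with the smallest p was as follows. Ctsb, a cysteine protease, had 668, 676 and 659 CPM in 5xFAD and 560, 626 and 592 CPM in WT, a log2 fold change of 0.17 ± 0.07 (SE; edgeR adjusted p = 0.37), and the groups did not overlap. Arsa, the sulfatase that degrades the myelin lipid sulfatide, had a log2 fold change of -0.34 ± 0.09 (edgeR adjusted p = 0.243). Npc2, which hands cholesterol from the lumen to the membrane protein Npc1, had -0.24 ± 0.09 (edgeR adjusted p = 0.317). The lysosomal cation channel gene Tmem175 had 0.16 ± 0.10 (edgeR adjusted p = 0.545), with 30.3, 29.7 and 30.5 CPM in 5xFAD and 25.4, 30.5 and 25.3 CPM in WT. Of the pump, Atp6v0b had -0.31 ± 0.09 (edgeR adjusted p = 0.243), Atp6v1f -0.31 ± 0.11 (edgeR adjusted p = 0.289) and the accessory subunit gene Atp6ap1 0.10 ± 0.07 (edgeR adjusted p = 0.635).

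Overexpression of Ulk1 on the 5xFAD background was then assessed by comparing 5xFAD;Ulk1OV with 5xFAD. None of the 51 genes was called by edgeR, whether or not the library labelled 5xFAD;Ulk1OV replicate 3 was included, and 0.0464% of all genes tested were called. At an unadjusted p under 0.05, 7 were higher and 3 lower (10 of 51, 19.6%, against 17.4% of all genes tested). DESeq2 called 5 of the 51 (Gaa, Hexa, Npc2, Atp6v0b and Atp6v1f, all higher) and 5.35% of all genes given an adjusted p. The median log2 fold change of the 51 genes was -0.02. Libraries did not overlap in 16 of the 51 genes (31.4%), against 22.2% of all genes tested; with 2 libraries of 5xFAD;Ulk1OV, replicates 1 and 2, these were 27 genes (52.9%) and 37.6%.

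Hexa, a subunit of the hexosaminidase that degrades gangliosides, had 63.1, 63.4 and 63.1 CPM in 5xFAD;Ulk1OV and 52.3, 55.5 and 49.6 CPM in 5xFAD. Its libraries did not overlap, and the log2 fold change was 0.27 ± 0.07 (edgeR adjusted p = 0.105). Npc2 had a log2 fold change of 0.37 ± 0.09 (edgeR adjusted p = 0.0908), the smallest adjusted p of the 51 genes in this comparison. Ctsh, an aminopeptidase among the cathepsins, had 17.7, 18.1 and 14.1 CPM in 5xFAD;Ulk1OV and 11.9, 15.7 and 11.9 CPM in 5xFAD. Those values overlapped, and the log2 fold change was 0.33 ± 0.16 (edgeR adjusted p = 0.289). For Tmem175, the 5xFAD;Ulk1OV libraries with 24.6, 25.9 and 22.7 CPM lay below all 5xFAD libraries, with a log2 fold change of -0.31 ± 0.10 (edgeR adjusted p = 0.15). In the pump, Atp6v0b had 0.29 ± 0.09 (edgeR adjusted p = 0.121), Atp6v1f 0.38 ± 0.11 (edgeR adjusted p = 0.116) and Atp6ap1 -0.14 ± 0.07 (edgeR adjusted p = 0.365). From replicates 1 and 2 of 5xFAD;Ulk1OV alone, the log2 fold change against 5xFAD was 0.46 ± 0.16 for Ctsh, 0.28 ± 0.08 for Hexa, 0.37 ± 0.10 for Npc2 and -0.24 ± 0.11 for Tmem175. It was 0.33 ± 0.10 for Atp6v0b, 0.44 ± 0.12 for Atp6v1f and -0.12 ± 0.09 for Atp6ap1.

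The effect of Ulk1OV without 5xFAD was asked by comparing Ulk1OV with WT. Here 3 of the 51 genes were called (5.88%), all lower. Of all genes tested, 5.17% were called and 3.04% were called lower, so the share called was near that of all genes. The 3 were Arsa and 2 subunits of the pump's membrane part, Atp6v0c and Atp6v0b. The 51 genes had a median log2 fold change of -0.04. Libraries did not overlap in 17 of the 51 genes (33.3%), against 29.5% of all genes tested.

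Atp6v0c (GRCm38 chromosome 17, 24163866 to 24169702) encodes the proteolipid of which most of the proton-carrying ring is built. Its level was 96.1, 123 and 70.6 CPM in the Ulk1OV libraries and 178, 198 and 170 CPM in the WT libraries. All 3 Ulk1OV libraries lay below all WT libraries, and replicate 3 was the lowest of the 12. The log2 fold change was -0.91 ± 0.19 (SE; edgeR adjusted p = 0.0273). Atp6v0c has pseudogenes of near-identical sequence: Atp6v0c-ps2 held 12 to 59 counts, 0.685% to 1.89% of the counts of both, and Atp6v0c-ps1 was at 0 counts, so counting between them is uncertain to that extent at least.

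Atp6v0b (chromosome 4, 117884326 to 117887333) encodes a second proteolipid of the same ring. It had 153, 171 and 162 CPM in Ulk1OV and 212, 218 and 187 CPM in WT, with no overlap. The log2 fold change was -0.34 ± 0.09 (edgeR adjusted p = 0.0407). Arsa (chromosome 15, 89472476 to 89477425) had 27.0, 25.7 and 23.6 CPM in Ulk1OV and 32.3, 37.2 and 33.9 CPM in WT, again with no overlap. Its log2 fold change was -0.44 ± 0.09 (edgeR adjusted p = 0.0287). Corrected for the GC content and length of transcripts, Atp6v0b had -0.19 (edgeR adjusted p = 0.143) and Arsa -0.27 (edgeR adjusted p = 0.0837), and neither was called, while Atp6v0c stayed called at -0.88 (edgeR adjusted p = 0.027). Under that correction 4 of the 51 genes and 3.63% of all genes were called: besides Atp6v0c, Atp6ap2 (-0.35, edgeR adjusted p = 0.0308) and Atp6v1h were lower and Atp6v0d1 (0.27, edgeR adjusted p = 0.0351) higher.

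The remaining classes held no called gene in Ulk1OV against WT. Cathepsins had a median log2 fold change of -0.20, with 7 of 9 below 0, and the smallest p belonged to Ctsf, a cysteine protease, at -0.34 ± 0.10 (edgeR adjusted p = 0.0661). Npc2 had -0.32 ± 0.09 (edgeR adjusted p = 0.058). Lamp1, a main protein of the lysosomal membrane, had 406, 446 and 429 CPM in Ulk1OV and 392, 371 and 393 CPM in WT, a log2 fold change of 0.15 ± 0.09 (edgeR adjusted p = 0.324). The 8 subunits of V1 had log2 fold changes between -0.24 and 0.21, with a median of 0.00. Among them, Atp6v1g2 had 0.21 ± 0.09 (edgeR adjusted p = 0.168), with 439, 502 and 449 CPM in Ulk1OV and 401, 402 and 400 CPM in WT. Of the accessory subunits, Atp6ap2 had -0.18 ± 0.08 (edgeR adjusted p = 0.188). No member was called without Ulk1OV replicate 3, WT replicate 1 or WT replicate 2, when 0 genes of the whole table were called, and Arsa alone was called without Ulk1OV replicate 1 (2.8% of all genes). Atp6v0b was also not called when replicate 3 of 5xFAD was left out, nor when replicate 1 or replicate 2 of 5xFAD;Ulk1OV was (-0.34 in each case), and Arsa was not called without WT replicate 3 (-0.45). With any 1 library left out, the log2 fold change of Atp6v0c stayed between -1.14 and -0.73. Without 5xFAD replicate 1 there were 6 called lower, where 7.34% of all genes were called, and without Ulk1OV replicate 2 there were 5, where 5.82% were. Once the library labelled 5xFAD;Ulk1OV replicate 3 was left out, 5 were called lower (Atp6v0c, Atp6v0b, Arsa, Ctsd and Naglu), against 6.72% of all genes tested.

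**Figure D2:**
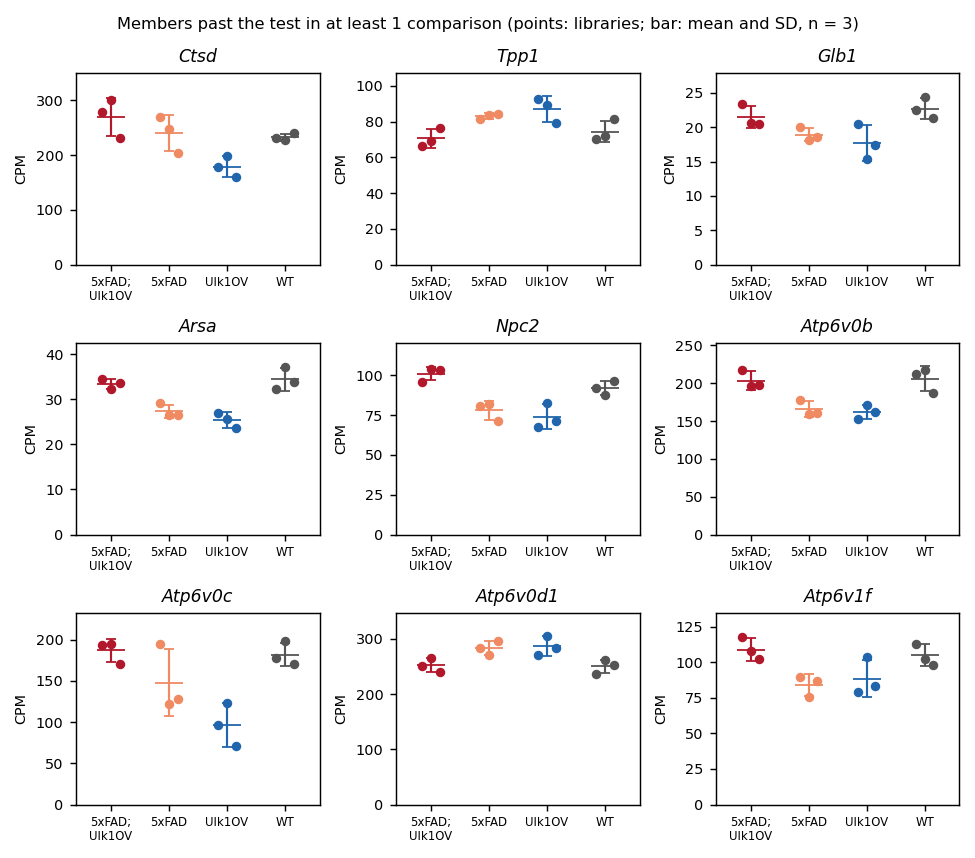
CPM of the 9 genes called in at least 1 comparison, in each library (points), with the mean and SD of each group of 3 (bars). Atp6v0c lies between 70.6 and 123 CPM in Ulk1OV and between 170 and 198 CPM in WT, and Tpp1 and Atp6v0d1 have their highest group means in Ulk1OV.

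The effect of 5xFAD in mice that carried Ulk1OV was asked by comparing 5xFAD;Ulk1OV with Ulk1OV. Both ring subunits, Arsa, Ctsd and Npc2 were higher in 5xFAD;Ulk1OV. These were the 5 called of 51 (9.8%), all higher; of all genes tested 6.1% were called and 3.67% were called higher. The median log2 fold change of the 51 genes was 0.05, and that of all genes tested -0.01. Libraries did not overlap in 21 of the 51 genes (41.2%), against 27.6% of all genes tested, and with only replicates 1 and 2 of 5xFAD;Ulk1OV in 36 (70.6%), against 46.8%. The Ulk1OV libraries used here are those of the comparison with WT, so the 2 comparisons share them and are not independent.

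Atp6v0c had 194, 195 and 171 CPM in 5xFAD;Ulk1OV, all above the Ulk1OV libraries given above, with a log2 fold change of 0.95 ± 0.19 (SE; edgeR adjusted p = 0.0197). Atp6v0b had 218, 196 and 197 CPM in 5xFAD;Ulk1OV, also above all Ulk1OV libraries, with 0.33 ± 0.09 (edgeR adjusted p = 0.0423). Arsa had 34.4, 32.2 and 33.7 CPM in 5xFAD;Ulk1OV, with 0.40 ± 0.09 (edgeR adjusted p = 0.0299) and no overlap. For all 3 genes the 5xFAD;Ulk1OV libraries overlapped the WT libraries.

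Ctsd (chromosome 7, 142375911 to 142388038) encodes cathepsin D, the main aspartic protease of the lysosome. It had 279, 300 and 231 CPM in 5xFAD;Ulk1OV and 179, 198 and 160 CPM in Ulk1OV. The groups did not overlap, and the log2 fold change was 0.59 ± 0.12 (edgeR adjusted p = 0.0195). Npc2 (chromosome 12, 84754562 to 84773152) had 95.7, 104 and 103 CPM in 5xFAD;Ulk1OV and 67.7, 82.8 and 71.2 CPM in Ulk1OV. It too showed no overlap, with a log2 fold change of 0.45 ± 0.09 (edgeR adjusted p = 0.0196). After the GC and length correction, Atp6v0b (0.10, edgeR adjusted p = 0.48) and Arsa (0.22, edgeR adjusted p = 0.166) were not called, whereas Atp6v0c (0.90), Ctsd (0.41) and Npc2 (0.42) were. That correction also called Atp6ap2 (0.31, edgeR adjusted p = 0.0482) and Atp6v1h higher and Atp6v0d1 lower, making 6 of the 51 genes, against 2.97% of all genes.

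Among the classes with no call, Cd63, a tetraspanin of late endosomes, had 92.6, 93.5 and 81.9 CPM in 5xFAD;Ulk1OV and 69.0, 81.3 and 72.5 CPM in Ulk1OV. Every 5xFAD;Ulk1OV library was higher, and the log2 fold change was 0.27 ± 0.10 (edgeR adjusted p = 0.116). Atp6v1f, of the rotating stalk of V1, had 0.30 ± 0.11 (edgeR adjusted p = 0.107), and Atp6ap2 had 0.13 ± 0.08 (edgeR adjusted p = 0.359). Of the cathepsins 8 of 9 lay above 0, with a median of 0.19. No member was called without 5xFAD;Ulk1OV replicate 1, 5xFAD;Ulk1OV replicate 2 or Ulk1OV replicate 3, when 0 genes of the table were called, and Ctsd and Arsa were called without Ulk1OV replicate 1 (2.19% of all genes). Atp6v0b was also not called when replicate 3 of 5xFAD was left out, nor when replicate 1 or replicate 2 of WT was (0.33 in each case). Once the library labelled 5xFAD;Ulk1OV replicate 3 was left out, 9 were called higher (Atp6v0c, Atp6v0b, Arsa, Ctsd, Npc2, Grn, Ctsz, Gusb and Naglu) and 2 lower (Tpp1 and Galc), against 8.97% of all genes tested. Without that library Atp6v0c had 1.03 ± 0.21, Ctsd 0.71 ± 0.12, Npc2 0.45 ± 0.10, Arsa 0.40 ± 0.11, Atp6v0b 0.36 ± 0.10 and Cd63 0.34 ± 0.11.

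**Figure D3:**
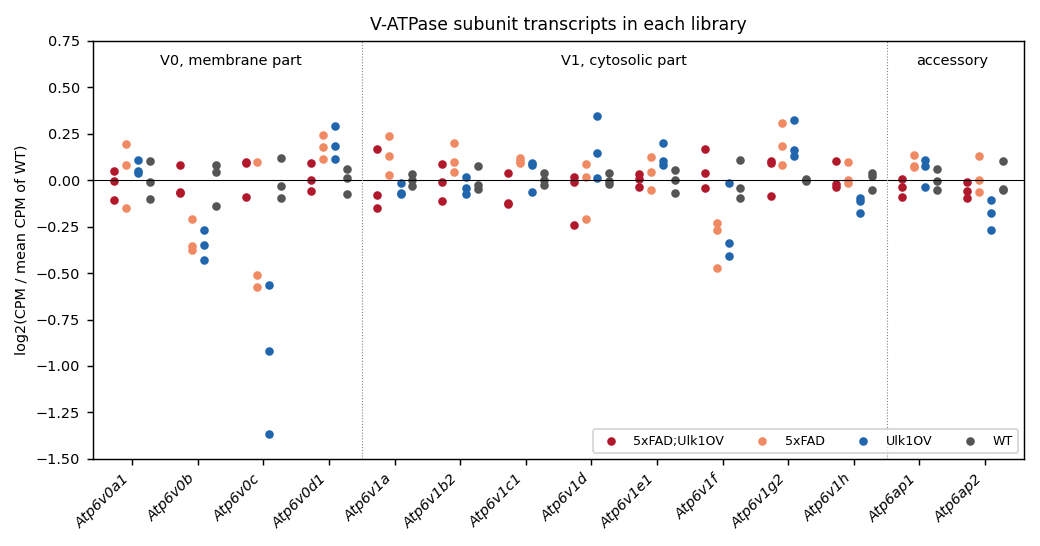
Log2 ratio of CPM to the mean CPM of WT for the 14 proton pump subunits in each library, with V0, V1 and accessory subunits apart. The Ulk1OV libraries of Atp6v0c reach the lowest values, and those of Atp6v0d1 and Atp6v1g2 lie above all WT libraries.

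The effect of Ulk1OV differed with the 5xFAD background for 9 of the 51 genes (17.6%), as tested by the interaction, the log2 effect of Ulk1OV with 5xFAD minus its effect without 5xFAD. For Atp6v0c, Atp6v0b, Atp6v1f, Arsa, Npc2, Glb1 and Ctsd the interaction was above 0, and for Tpp1 and Atp6v0d1 below 0. Of all genes tested 12.8% were called, 6.8% above and 5.96% below 0. The 51 genes had a median interaction of 0.07, against -0.01 for all genes tested. With the GC and length correction the median was 0.00 for all genes and 0.03 for the 51 genes.

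Proton pump subunits of the membrane part moved in opposite directions. Atp6v0c had 195, 122 and 128 CPM in 5xFAD, where replicate 1 stood at the level of 5xFAD;Ulk1OV and the others below it. Its interaction was 1.25 ± 0.27 (SE; edgeR adjusted p = 0.0126), the largest of the 51 genes. It was called under all 18 alternative settings, with 1.06 to 1.52. Atp6v0b had 178, 159 and 161 CPM in 5xFAD and an interaction of 0.64 ± 0.12 (edgeR adjusted p = 0.00837). With the GC and length correction it was 0.25 (edgeR adjusted p = 0.18).

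Atp6v0d1 (chromosome 8, 105524465 to 105566047), which joins the ring to the stalk of V1, went the other way. It had 250, 266 and 240 CPM in 5xFAD;Ulk1OV and 283, 271 and 296 CPM in 5xFAD. Without 5xFAD it had 271, 306 and 284 CPM in Ulk1OV and 237, 261 and 252 CPM in WT. In both backgrounds the groups did not overlap, with 5xFAD;Ulk1OV below 5xFAD and Ulk1OV above WT. The interaction was -0.37 ± 0.11 (edgeR adjusted p = 0.0482), or -0.57 ± 0.09 (edgeR adjusted p = 0.00608) with the GC and length correction. Leaving out the library labelled 5xFAD;Ulk1OV replicate 3 gave -0.31 ± 0.12 (edgeR adjusted p = 0.103).

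Atp6v1f (chromosome 6, 29467718 to 29470512) was the called subunit of V1. It had 118, 108 and 102 CPM in 5xFAD;Ulk1OV and 89.5, 75.6 and 87.1 CPM in 5xFAD. It had 79.1, 104 and 83.1 CPM in Ulk1OV and 113, 102 and 98.4 CPM in WT. The groups with 5xFAD did not overlap, and those without it did, because Ulk1OV replicate 2 lay among the WT libraries. The interaction was 0.62 ± 0.16 (edgeR adjusted p = 0.0226), or 0.32 (edgeR adjusted p = 0.132) with the GC and length correction. Of the other 7 subunits of V1, none was called, and 6 of the 8 had an interaction below 0 (median -0.13). The accessory subunit Atp6ap1 had -0.19 ± 0.11 (edgeR adjusted p = 0.26), with 346, 324 and 336 CPM in 5xFAD;Ulk1OV, 362, 364 and 379 CPM in 5xFAD, 372, 336 and 363 CPM in Ulk1OV and 332, 360 and 344 CPM in WT. With the GC and length correction, Atp6ap2, Atp6v1h and Atp6v0c were called above 0, and Atp6v1g2 and Atp6v0d1 below 0. That correction called 8 of the 51 genes in the interaction, against 5.65% of all genes, the others being Arsa, Npc2 and the cathepsin gene Ctsl (0.45 ± 0.11, edgeR adjusted p = 0.0339).

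Among the hydrolases, Arsa had 29.1, 26.4 and 26.4 CPM in 5xFAD, below every 5xFAD;Ulk1OV library. Its interaction was 0.73 ± 0.13 (edgeR adjusted p = 0.00735), or 0.45 ± 0.12 (edgeR adjusted p = 0.0409) with the GC and length correction. An antisense gene that overlaps an exon of Arsa, C230037L18Rik, held 18 to 45 counts, 3.91% to 7.49% of the counts of both, and the sources used here do not state whether counting used strand. Glb1 (chromosome 9, 114401076 to 114474898), the beta-galactosidase of the lysosome, had 23.3, 20.6 and 20.5 CPM in 5xFAD;Ulk1OV and 20, 18.1 and 18.5 CPM in 5xFAD. It had 20.5, 15.3 and 17.4 CPM in Ulk1OV and 22.5, 24.4 and 21.4 CPM in WT. The interaction was 0.55 ± 0.17 (edgeR adjusted p = 0.0496), or 0.49 (edgeR adjusted p = 0.114) with the GC and length correction. Glb1 shares exonic sequence with Tmppe on the same strand, which held 47 to 86 counts beside the 259 to 447 of Glb1.

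Tpp1 (chromosome 7, 105744811 to 105752235), a tripeptidyl peptidase whose loss causes a form of Batten disease in people, was the hydrolase with an interaction below 0. It had 66.2, 68.9 and 76.6 CPM in 5xFAD;Ulk1OV and 81.5, 83.7 and 84.1 CPM in 5xFAD, without overlap. It had 92.7, 89.2 and 78.9 CPM in Ulk1OV and 70.4, 71.8 and 81.2 CPM in WT, where the lowest Ulk1OV library lay below the highest WT library. The interaction was -0.46 ± 0.12 (edgeR adjusted p = 0.0303), or -0.39 (edgeR adjusted p = 0.0588) with the GC and length correction.

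Of the 9 cathepsins, Ctsd was called: it had 270, 247 and 204 CPM in 5xFAD and 231, 228 and 240 CPM in WT, and an interaction of 0.55 ± 0.17 (edgeR adjusted p = 0.0481). With the GC and length correction this was 0.26 (edgeR adjusted p = 0.326). Leaving out the library labelled 5xFAD;Ulk1OV replicate 3 gave 0.68 ± 0.16 (edgeR adjusted p = 0.0162). The median interaction of the cathepsins was 0.21, with 7 of 9 above 0. The lysosomal cofactor Npc2 had 80.9, 81.7 and 71.3 CPM in 5xFAD and 91.8, 87.7 and 96.3 CPM in WT. Each 5xFAD;Ulk1OV library lay above each 5xFAD library, and each Ulk1OV library below each WT library. Its interaction of 0.68 ± 0.13 (edgeR adjusted p = 0.00776) was called under all 18 alternative settings, with 0.62 to 0.80. The smallest p among membrane proteins was that of Cd63, with 0.41 ± 0.14 (edgeR adjusted p = 0.0681).

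**Figure D4:**
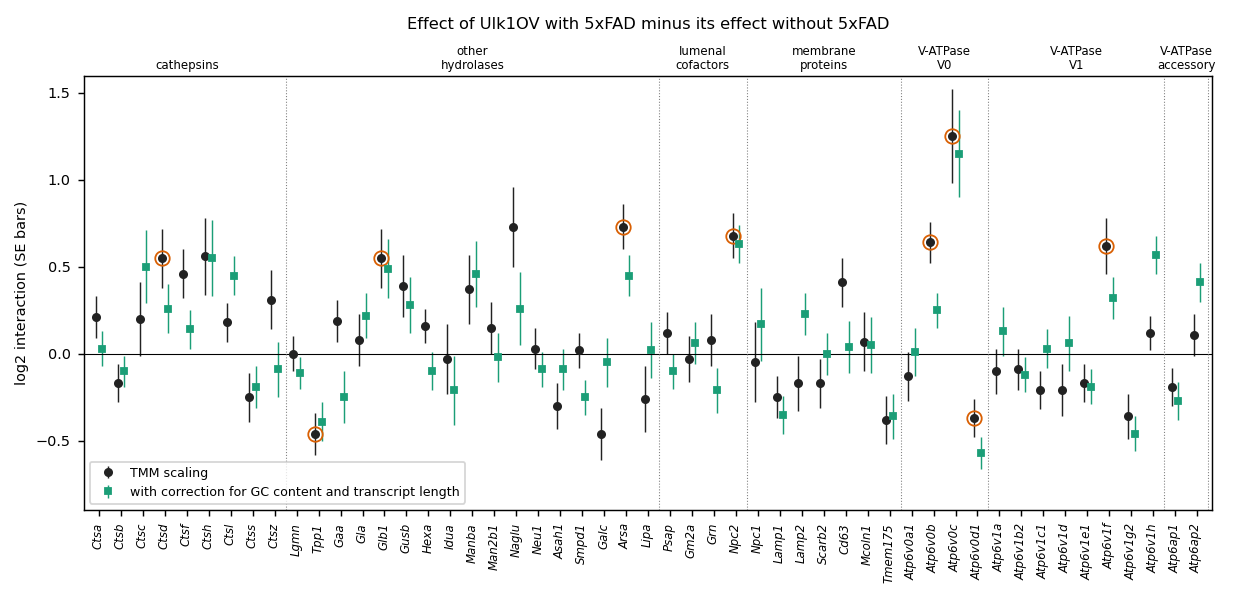
Interaction of 5xFAD and Ulk1OV (log2) for the 51 genes by class, with SE bars, from TMM scaling (black) and after correcting for GC content and transcript length (green squares). Orange rings mark the 9 genes called with TMM scaling; Atp6v0c stays above 1 in both, while Atp6v0b, Atp6v1f and Ctsd are nearer 0 with the correction.

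Once the library labelled 5xFAD;Ulk1OV replicate 3 was left out, the interaction was called for 13 of the 51 genes, 10 above and 3 below 0, against 14.4% of all genes tested. Atp6v0d1 was no longer among them, and Naglu, Ctsf, Cd63, Galc and Asah1 were added. The interactions were then 1.33 ± 0.29 for Atp6v0c, 0.75 ± 0.14 for Arsa, 0.70 ± 0.14 for Npc2, 0.69 ± 0.13 for Atp6v0b, 0.69 ± 0.16 for Atp6v1f, 0.61 ± 0.18 for Glb1 and -0.49 ± 0.13 for Tpp1. The count was 4 without 5xFAD replicate 2, 5xFAD;Ulk1OV replicate 1, 5xFAD;Ulk1OV replicate 2 or WT replicate 1, where 5.73% to 7.72% of all genes were called, and in each of those cases the 4 were Atp6v0c, Atp6v0b, Npc2 and Arsa. It was 5, with 5.53% to 7.13% of all genes called, without 5xFAD replicate 3, Ulk1OV replicate 3 or WT replicate 2, when the same 4 were joined by Atp6v1f or, without Ulk1OV replicate 3, by Tpp1. Over all 18 alternative settings Arsa was called in 17, Atp6v0b in 16, Atp6v1f in 11, Tpp1 in 8, Ctsd in 7, Glb1 in 6 and Atp6v0d1 in 5.

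The remaining 42 genes were not called in any of the 5 tests of the main fit (edgeR, TMM scaling, filtered genes, 12 libraries). Atp6ap2, Atp6v1h, Atp6v1g2 and Ctsl were called with the GC and length correction. Ctsf was called with a replicate block, with the size factors of DESeq2 and without the filter on low counts. Ctsz and Naglu were also called without that filter. Naglu and Galc, singled out after their values were seen because DESeq2 called both, show the 2 directions. Naglu had 11.5, 14.2 and 9.46 CPM in 5xFAD;Ulk1OV and 10.6, 9.71 and 11 CPM in 5xFAD. It had 9.48, 7.2 and 7.08 CPM in Ulk1OV and 11.9, 11.9 and 11.1 CPM in WT, so that all Ulk1OV libraries lay below all WT libraries. Its interaction was 0.73 ± 0.23 (SE; edgeR adjusted p = 0.0552). Galc, which degrades galactosylceramide of myelin, had 27.9, 29.5 and 36.5 CPM in 5xFAD;Ulk1OV and 36.2, 35.5 and 34.6 CPM in 5xFAD. It had 39.3, 39.4 and 41.8 CPM in Ulk1OV and 29.5, 34.2 and 35.7 CPM in WT, here with the Ulk1OV libraries above all WT libraries. Its interaction was -0.46 ± 0.15 (edgeR adjusted p = 0.0655), or -0.56 ± 0.14 (edgeR adjusted p = 0.0216) without that library.

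Several hydrolases and cofactors had similar means in all groups. Smpd1 averaged 105 ± 3.98 CPM in 5xFAD;Ulk1OV, 105 ± 1.32 CPM in 5xFAD, 106 ± 4.46 CPM in Ulk1OV and 108 ± 2.72 CPM in WT (SD, n = 3 each). Gla, the alpha-galactosidase, averaged 14.7 ± 0.25 CPM in 5xFAD;Ulk1OV, 14.3 ± 0.92 CPM in 5xFAD, 14.2 ± 0.809 CPM in Ulk1OV and 14.6 ± 0.327 CPM in WT. Psap averaged 1658 ± 32.9 CPM in 5xFAD;Ulk1OV, 1573 ± 116 CPM in 5xFAD, 1558 ± 82.3 CPM in Ulk1OV and 1602 ± 39.9 CPM in WT. Their interactions were 0.02 ± 0.10 for Smpd1, 0.08 ± 0.15 for Gla and 0.12 ± 0.12 for Psap. Neu1, Idua, Lgmn and Gm2a also had interactions of at most 0.08 in size. Grn, the progranulin gene, had an interaction of 0.08 ± 0.15, but its levels were less alike. It had 68.1, 70.2 and 71.2 CPM in 5xFAD, above the 66.4, 62.5 and 54.2 CPM in WT. It had 73.0, 71.4 and 58.7 CPM in 5xFAD;Ulk1OV and 56.0, 62.5 and 49.7 CPM in Ulk1OV, and the library labelled 5xFAD;Ulk1OV replicate 3 alone lay among the Ulk1OV libraries. Without that library the interaction of Grn was 0.20 ± 0.15. With the GC and length correction over all libraries it was -0.21 ± 0.13. The nucleotide-binding subunits of V1, the catalytic Atp6v1a and its partner Atp6v1b2, had interactions of -0.10 ± 0.13 and -0.09 ± 0.12. Atp6v0a1, the neuronal form of the large V0 subunit, had -0.13 ± 0.14. Lamp1, Lamp2 and Scarb2, structural proteins of the membrane, had -0.25 ± 0.12, -0.17 ± 0.16 and -0.17 ± 0.14.

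Some markers of other cells and the mitochondrial share moved with the same comparisons. The 12 fibroblast markers, none at 0 in every library, summed to 505, 513 and 218 CPM in 5xFAD;Ulk1OV, 150 to 301 CPM in 5xFAD, 186 to 198 CPM in Ulk1OV and 345 to 533 CPM in WT. The library labelled 5xFAD;Ulk1OV replicate 3 thus lay among the 5xFAD libraries, and replicates 1 and 2 lay above all of them. Of these 12, 9 were called lower in Ulk1OV against WT, 7 higher in 5xFAD;Ulk1OV against Ulk1OV, and 9 higher in the interaction. Of all genes tested, 5.17%, 6.1% and 12.8% were called in these tests, in either direction. Without that library the fibroblast counts were 9, 9 and 10, and the shares of all genes 6.72%, 8.97% and 14.4%.

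The 15 endothelial and mural markers summed to 275, 327 and 216 CPM in 5xFAD;Ulk1OV, 148 to 231 CPM in 5xFAD, 169 to 186 CPM in Ulk1OV and 238 to 331 CPM in WT. The 12 border macrophage markers summed to 52.8, 74.2 and 27.2 CPM in 5xFAD;Ulk1OV, 26.4 to 43.6 CPM in 5xFAD, 21.4 to 35.8 CPM in Ulk1OV and 43.7 to 90.9 CPM in WT. In both lists replicates 1 and 2 of 5xFAD;Ulk1OV lay above every 5xFAD library. Transcripts of the mitochondrial genome took 4.17%, 4.03% and 5.97% of counts in 5xFAD;Ulk1OV, 5.52% to 6.98% in 5xFAD, 6.4% to 8.76% in Ulk1OV and 5.05% to 5.42% in WT, and here replicates 1 and 2 were the lowest of the 12 libraries. Of 13 protein-coding genes of that genome, 3 were called higher in Ulk1OV against WT, 7 lower in 5xFAD;Ulk1OV against Ulk1OV and 7 lower in the interaction. Without the library labelled 5xFAD;Ulk1OV replicate 3 these were 5, 8 and 8. The 14 choroid plexus markers summed to 267 to 627 CPM in 5xFAD;Ulk1OV and 213 to 560 CPM in 5xFAD. They summed to 6053, 534 and 314 CPM in Ulk1OV and 289, 321 and 8605 CPM in WT, and none was called in any comparison. Sums of the 12 oligodendrocyte markers overlapped in all groups. They were 9422 to 14700 CPM in 5xFAD;Ulk1OV, 7905 to 14935 CPM in 5xFAD, 11274 to 12769 CPM in Ulk1OV and 8369 to 13885 CPM in WT.

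Microglia, which are rich in cathepsins, had 20 general markers whose sums overlapped in all 4 groups: 740 to 827 CPM in 5xFAD;Ulk1OV, 729 to 902 CPM in 5xFAD, 661 to 842 CPM in Ulk1OV and 705 to 815 CPM in WT. A separate list of 20 genes of microglia at plaques summed to 3570, 3898 and 3245 CPM in 5xFAD;Ulk1OV, 2458 to 2705 CPM in 5xFAD, 2209 to 3009 CPM in Ulk1OV and 2928 to 3436 CPM in WT. All 5xFAD;Ulk1OV libraries lay above all 5xFAD and Ulk1OV libraries. The most abundant gene of that list, which astrocytes also express, made up 73.7% to 83.4% of the sum. The other 19 genes summed to 680, 648 and 561 CPM in 5xFAD;Ulk1OV, 610 to 680 CPM in 5xFAD, 488 to 559 CPM in Ulk1OV and 585 to 632 CPM in WT. Of the 20, 1 was called lower in Ulk1OV against WT, 3 higher in 5xFAD;Ulk1OV against Ulk1OV and 2 above 0 in the interaction. The shares of all genes called were 5.17%, 6.1% and 12.8%. Once 5xFAD;Ulk1OV was reduced to replicates 1 and 2, the counts were 2, 4 and 2 and the shares 6.72%, 8.97% and 14.4%. The part of these differences in the changes of the lysosomal genes was not tested.

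Further lysosomal genes outside the 51 were counted from 4 lists of 114 genes, of which 102 were tested. They comprised other hydrolases, other membrane proteins, other pump subunits and assembly factors, and genes of sorting and lysosome formation. Of the 102, 0 were called in 5xFAD against WT and 0 in 5xFAD;Ulk1OV against 5xFAD; at an unadjusted p under 0.05 there were 14 (13.7%, against 12.4% of all genes tested) and 20 (19.6%, against 17.4%). In Ulk1OV against WT 2 were higher (Tmem106b and Ap3b1) and 3 lower (Tpcn1, Abcb9 and Scpep1), 4.9% against 5.17% of all genes. In 5xFAD;Ulk1OV against Ulk1OV 2 were higher (Spns1 and Abcb9) and 3 lower (Arl8b, Vps41 and Ap3b1), 4.9% against 6.1%. The interaction was called for 16 of 102 (15.7%, against 12.8% of all genes), 7 above and 9 below 0, with a median of -0.05. These shares were near those of all genes. Without the library labelled 5xFAD;Ulk1OV replicate 3, 104 of these genes were tested, and 0 were called in each of the comparisons of 5xFAD with WT and of 5xFAD;Ulk1OV with 5xFAD. Then 6 were called in Ulk1OV against WT (5.77%, against 6.72% of all genes), 6 in 5xFAD;Ulk1OV against Ulk1OV (5.77%, against 8.97%) and 15 in the interaction, 9 above and 6 below 0 (14.4%, against 14.4%). In 5xFAD;Ulk1OV against Ulk1OV, Abcb9 and Ap3b1 stayed called, and Scpep1, Cd68, Dnase2a and Atp6v0e were added. Spns1 (edgeR adjusted p = 0.0546), Arl8b (edgeR adjusted p = 0.0586) and Vps41 (edgeR adjusted p = 0.0569) were no longer called there.

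Among pump genes outside the 51, Atp6v1g1, the widely expressed form of the stalk subunit G, averaged 105 ± 2.13 CPM in 5xFAD;Ulk1OV, 83.6 ± 2.76 CPM in 5xFAD, 90.6 ± 9.24 CPM in Ulk1OV and 100 ± 4.95 CPM in WT (SD, n = 3 each). Its interaction was 0.47 ± 0.12 (edgeR adjusted p = 0.0212), above 0 like that of Atp6v1f. Dmxl1, of a complex that assembles the pump, had an interaction of -0.75 ± 0.19 (edgeR adjusted p = 0.0233), and Vma21, an assembly chaperone, of -0.43 ± 0.12 (edgeR adjusted p = 0.0344). Tmem106b, a lysosomal membrane protein, averaged 204 ± 9.49 CPM in 5xFAD;Ulk1OV, 249 ± 18.9 CPM in 5xFAD, 255 ± 29.3 CPM in Ulk1OV and 199 ± 5.01 CPM in WT (SD, n = 3 each). Its interaction of -0.64 ± 0.13 (edgeR adjusted p = 0.0104) had the sign of that of Atp6v0d1 and Tpp1. Arl8b, a GTPase that moves lysosomes along microtubules, had -0.57 ± 0.11 (edgeR adjusted p = 0.00779). Without the library labelled 5xFAD;Ulk1OV replicate 3 the interactions were 0.48 ± 0.13 for Atp6v1g1, -0.74 ± 0.21 for Dmxl1, -0.65 ± 0.14 for Tmem106b and -0.51 ± 0.11 for Arl8b, all called, and -0.42 ± 0.13 for Vma21 (edgeR adjusted p = 0.0557), which was not.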

How the data were processed

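Hippocampal RNA of 4 mouse genotypes was sequenced in 12 libraries. The values used are the deposited raw read counts of each gene; the submitters' processing notes name FastQC, Trim Galore, HISAT2, SAMtools, featureCounts, DESeq2 and build mm10. The sources used here give neither the annotation nor the strand setting, so overlapping genes and pseudogenes have uncertain counts. From these counts edgeR 4.0.16 (R 4.3.3) kept 17227 genes with its filterByExpr defaults, scaled libraries by TMM and fitted a quasi-likelihood model to all 12 libraries with 1 mean per group. Calls use a Benjamini-Hochberg adjusted p under 0.05 over all genes tested. Standard errors are the log2 fold change over the square root of F. CPM use TMM-scaled totals. Positions, lengths and GC content come from GENCODE M21 on GRCm38. Alternatives were DESeq2 1.42.0, its size factors, no filter, a replicate block, a GC and length correction (loess, span 0.4), the 6 libraries of a comparison, and each library left out. An exact test of 3 against 3 cannot go below p = 0.1. Genes were named if called, or as the smallest p of a class with no call. The genes and lists were chosen with earlier results of these data known. Leaving 5xFAD;Ulk1OV replicate 3 out of the marker lists, the further lysosomal lists and the counts of groups that do not overlap, and the most abundant gene out of the plaque list, was chosen after seeing the data.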

Additional observations from a re-analysis of the deposited data

Results flagged for a closer look

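By the interaction test itself, 9 of the 51 genes (17.6%) were called (edgeR adjusted p under 0.05). This test asks whether the effect of Ulk1OV differs between mice with and without 5xFAD. Of all genes tested 12.8% were called. The log2 differences were 1.25 for Atp6v0c, 0.73 for Arsa, 0.68 for Npc2, 0.64 for Atp6v0b, 0.62 for Atp6v1f, 0.55 for Ctsd and 0.55 for Glb1. They were -0.46 for Tpp1 and -0.37 for Atp6v0d1. The first and the last of these encode parts of the same membrane sector of the pump. Of 18 alternative settings, Atp6v0c was called in 18, Tpp1 in 8, Ctsd in 7, Glb1 in 6 and Atp6v0d1 in 5. Without the library labelled 5xFAD;Ulk1OV replicate 3, Atp6v0d1 had -0.31 (edgeR adjusted p = 0.103). With the GC and length correction Atp6v0b, Atp6v1f, Ctsd, Glb1 and Tpp1 were not called.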

How the results depend on the processing

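Of the 51 genes, DESeq2 called 5 in 5xFAD;Ulk1OV against 5xFAD (5.35% of all genes given an adjusted p), 8 in Ulk1OV against WT (10.8%), 10 in 5xFAD;Ulk1OV against Ulk1OV (13.4%) and 14 in the interaction (17.5%). Without the filter on low counts 2 and 5 were called in 5xFAD;Ulk1OV against 5xFAD and in Ulk1OV against WT (2.85% and 6.57% of all genes), and with only the 6 libraries of the comparison 3 in 5xFAD;Ulk1OV against Ulk1OV (2.61%). With the GC and length correction 4 were called in Ulk1OV against WT, 6 in 5xFAD;Ulk1OV against Ulk1OV and 8 in the interaction, where the share of all genes was 3.63%, 2.97% and 5.65%, and 0 in the other comparisons. With 1 library left out, counts ran from 0 to 1 in 5xFAD;Ulk1OV against 5xFAD, 0 to 6 in Ulk1OV against WT, 0 to 11 in 5xFAD;Ulk1OV against Ulk1OV and 4 to 13 in the interaction, and stayed at 0 in 5xFAD against WT. The shares of all genes called then ran, in the same order, from 0% to 1.48%, 0% to 7.34%, 0% to 9.23% and 5.53% to 14.7%. In 5xFAD against WT they ran from 0% to 0.221%. With a replicate block the 5 counts were 0, 0, 4, 5 and 10, where 0%, 0%, 6%, 7% and 13.1% of all genes were called. Deviations of same-numbered libraries had correlations of -0.183 to 0.216, and 4 of 18 were over 0.1. Those of libraries with other numbers had -0.205 to 0.222, and 7 of 36 were over 0.1. The labels give a replicate number alone, and whether same-numbered libraries shared a batch was not tested. For genes named as called or as the smallest p of a class, no direction in that comparison reversed under any alternative. Of their values called, 211 stayed called and 103 did not, and of those not called, 433 stayed so and 21 became called. The causes were not tested. With 3 libraries a group, a p that misses the threshold does not show equal levels.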
